A study of Mus musculus with 2 samples.

Results

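The Notch receptor, effector and target genes Notch1, Notch2, Notch4, Rbpj, Dtx1, Hes1, Nrarp and Esam were followed through the conventional dendritic cells type 2 (cDC2) of the mouse spleen. They were taken by name, with earlier results of these data known, and are 8 of the 17751 genes measured. RNA was counted per cell by CITE-seq, a droplet method in which each captured RNA molecule carries a unique molecular identifier (UMI). The cells were live MHCII+CD11c+ splenocytes left after T and B cells had been depleted from digested spleens of female mice aged 8 weeks. One library came from wild-type (WT) C57BL/6 mice and the other from Batf3-/- mice of the C57BL/6 strain, which lack the transcription factor needed by conventional dendritic cells type 1 (cDC1) and carry the deletion in every cell. Each library pooled the spleens of 6 mice. The WT mice came from a supplier and the Batf3-/- mice were bred in house, so genotype, source of the mice and library cannot be told apart. Since each genotype had 1 library, no difference between genotypes could be tested, and the intervals given are 95% intervals that cover counting error only.

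Notch receptors are cut after they bind a ligand on a neighbouring cell. Their intracellular part then enters the nucleus and joins RBPJ, the DNA-binding protein of the pathway, which otherwise sits on target genes with co-repressors. In the spleen, signalling through NOTCH2 is known for its role in maintaining the cDC2 that carry the adhesion molecule ESAM and the co-receptor CD4. Dtx1 encodes a ubiquitin ligase of the Deltex family, Hes1 a transcriptional repressor, and Nrarp a feedback inhibitor of the Notch complex, and each is a widely used target gene of the pathway.

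All 8 genes are protein coding in the mouse annotation of GRCm38. Dtx1 is at chr5:120680202-120711927 on the minus strand, Hes1 at chr16:30064384-30067796 on the plus strand, Nrarp at chr2:25180758-25183339 on the plus strand and Esam at chr9:37528078-37538319 on the plus strand. The receptors are at chr2:26457903-26516663 (Notch1, minus strand), chr3:98013527-98150361 (Notch2, plus strand) and chr17:34564268-34588503 (Notch4, plus strand), and Rbpj is at chr5:53466152-53657362 on the plus strand. Of the 8 genes, 6 had an entry among the RefSeq promoters of GRCm38.p6, with 7 windows of 300 bases between them. The RBPJ core motif TGGGAA, searched on both strands, was in 25.6% of all 32851 promoters of that table, and the longer form CGTGGGAA, which contains the core, was in 0.734%. Hes1 and Esam had no entry, and the windows of Dtx1 and Notch1 lie inside the genes as annotated above, not before their first base. Among the windows at hand, the core motif was in those of Rbpj. Its 2 matches are shown because they are copies of the factor's own motif at the factor's own gene. In the 30 bases around each, written 5′ to 3′ along the plus strand of GRCm38.p6, capitals mark the motif or its reverse complement.
Rbpj, chr5:53590185-53590214: aatgaaaaaggcTGGGAAcccgcggcgagc
Rbpj, chr5:53590269-53590298: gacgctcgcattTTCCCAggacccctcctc
RefSeq gives Rbpj 2 start sites here, both inside the gene as annotated above. The matches lie at -149 and -65 from the first of them, and the second match at -205 from the other. The libraries read the 3′ ends of transcripts and hold no measurement at these positions.

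The depth was 122530055 UMIs in the 12224 cells of the WT library (median per cell 8374.5) and 114517073 UMIs in the 12119 cells of the Batf3-/- library (median per cell 8516). Barcodes shared by both libraries numbered 56. The study divided the cells into 20 clusters, of which 9 were taken here as cDC2. These were the immature cDC2a cluster C0, the mitotic cDC2a clusters C5, C7 and C10, the mature cDC2a cluster C8, the immature and mature cDC2b clusters C2 and C11, the mature Il4i1+ cluster C1 and the Sox4+ cluster C3. The study annotated C3 as a Sirpa+ Sox4+ cDC, not as cDC2, and described it as mixed in lineage. Counting C3 among cDC2 is a choice made here, and values over all cDC2 include it. The 9 clusters held 7664 WT and 10396 Batf3-/- cells. C9, which the study listed with cDC2a in its text but annotated as mixed cDC2, was left out of these 9. The reasons were its few UMIs per cell (medians 1467 and 1487) and its high mitochondrial share (means 13.8% and 13.2%). It held 374 WT and 528 Batf3-/- cells. The summed level of the cDC2 markers Sirpa, Itgam, Irf4 and Cd4 lay between 226.6 and 564.6 CPM (UMIs of a gene per 1000000 UMIs of the cluster) in these clusters, against 31.4 CPM in the WT cDC1 cluster C4, while the T and NK cell markers Cd3e, Cd3g, Klrb1a and Ncr1 summed to at most 4.01 CPM. C3 also carried the pDC markers Siglech, Bst2, Tcf4 and Pacsin1, at 1196 CPM in WT and 1236 CPM in Batf3-/-, and C2 the monocyte markers Ly6c2, Lyz2, Csf1r and Cd14, at 3330 and 2932 CPM. The targeted gene, Batf3, was at 170.4 CPM over the WT cDC2 clusters and 2.65 CPM over the Batf3-/- ones. Because the clusters were made from the same transcript counts, differences between them are descriptions and were not tested.

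Among the receptors of the group, Notch2 had the highest level in each cDC2 cluster. In C0 it was at 47.0 CPM in WT and 46.4 CPM in Batf3-/-, from 1025 and 1015 UMIs. The level was highest in the mitotic cluster C10, with 62.7 CPM in WT and 65.5 CPM in Batf3-/-. It was lowest in the mature Il4i1+ cluster C1, with 28.8 and 24.4 CPM. The C1 interval lay below those of all other cDC2 clusters in both libraries. Between these ends the order was loose, since in WT the intervals of neighbouring clusters overlapped from C10 down to C7. Outside cDC2, Notch2 was at 38.4 CPM in WT C4, at 73.3 CPM in WT monocytes (C15) and at 24.4 CPM in WT pDCs (C14). In the mature cDC1 cluster C12 it was at 19.2 CPM in WT, 2.00-fold below C4. The mature cDC2a cluster C8, with 43.9 CPM in WT and 43.4 CPM in Batf3-/-, was not low in this way.

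Notch1 and Notch4, the other receptors of the group, had few UMIs in cDC2. Notch1 gave 11 UMIs in the 3176 WT cells of C0 and 16 UMIs in the 2961 Batf3-/- cells, or 0.504 and 0.731 CPM. It was highest in the Sox4+ cluster C3, with 8.59 CPM in WT and 9.69 CPM in Batf3-/-. In the immature cDC2b cluster C2 it was at 5.79 and 2.35 CPM, from 48 and 36 UMIs. These cDC2 values are small beside the pDCs, where Notch1 was at 59.0 CPM in WT and 62.4 CPM in Batf3-/-, and beside the NK, ILC and T cells of C13, with 34.2 and 35.6 CPM. C3, of the 9 clusters the one with the most Notch1, was also the one with the most transcripts of the pDC markers. The part of this in the Notch1 level was not tested.

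Notch4 was at 3.53 CPM in WT C0 and 5.21 CPM in Batf3-/- C0, and over all cDC2 clusters at 3.15 and 3.74 CPM. These values came from 77 and 114 UMIs in C0 and from 199 and 358 over all cDC2 clusters. Its level was higher in WT C4, at 24.6 CPM, and in the mitotic cDC1 cluster C6, at 17.1 CPM in WT. In the mature cDC1 cluster C12 it was at 5.73 CPM in WT, next to 5.58 CPM in WT C11. WT C4 was 6.97-fold above WT C0. The few cells of C4 left in Batf3-/-, 31 in number, had 48.9 CPM from 23 UMIs.

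Rbpj was detected in each cDC2 cluster and its order differed from that of the target genes. The mature cDC2a cluster C8 was highest, with 100.6 CPM in WT and 97.4 CPM in Batf3-/-. The cDC2b clusters came next, with 82.7 and 88.5 CPM in C2 and 85.4 and 80.5 CPM in C11. C1 was at 71.6 and 69.1 CPM and C3 at 70.3 and 63.6 CPM. C0 was at 62.6 and 63.3 CPM, below C2 by 0.40 and 0.48 on the log2 scale. The intervals of neighbours in this order overlapped throughout, in both libraries, while those of C8 and C0 did not. WT C4 exceeded all cDC2 clusters, with 121 CPM, and the WT mature cDC1 cluster C12 was at 173 CPM.

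Dtx1 was highest in the cDC2a clusters C0 and C10 and lowest in the immature cDC2b cluster C2 and the Sox4+ cluster C3, in both libraries. The study used published cDC2a and cDC2b signatures for these names. Citing earlier work, it gives Dtx1 among the genes that mark cDC2a. The difference of Dtx1 between clusters so named is therefore not independent of the names. Dtx1 was at 261 CPM in WT C0 (interval 254 to 268, 5697 UMIs) and at 199 CPM in Batf3-/- C0 (interval 193 to 205, 4344 UMIs). C10 was at 264 and 167 CPM. The other mitotic clusters C5 and C7 and the mature cluster C8 were alike, with 163.0, 159 and 161 CPM in WT and 95.7, 102 and 105 CPM in Batf3-/-, and their intervals overlapped within each library. C1 was at 135 CPM in WT and 67.9 CPM in Batf3-/-, and the mature cDC2b cluster C11 at 88.8 and 79.0 CPM. C1 was above C11 without overlap in WT, while in Batf3-/- the interval of C11 overlapped those of both C5 and C1. C3 was at 37.6 and 36.1 CPM, and C2 was lowest at 19.7 and 19.96 CPM, against 12.2 CPM in WT C4. In WT, 85 of the 163 UMIs of Dtx1 in C2 were left without the 5% of cells with the most UMIs. Outside the conventional dendritic cells Dtx1 was at 93.0 CPM in WT C13 and at 137 CPM in WT C16, a cluster of mixed cells.

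Hes1 followed another order. It was at 144 CPM in WT C0 and 122 CPM in Batf3-/- C0, and C10 was close by with 130.2 and 122 CPM. Unlike Dtx1, it was also well represented in cDC2b, with 130 CPM (WT) and 92.4 CPM (Batf3-/-) in C2 and 119 and 105 CPM in C11. The intervals of neighbouring clusters overlapped from C0 down to C5 in WT. C3 was at 75.8 and 47.8 CPM, C7 at 67.4 and 70.0 CPM, and C1 was lowest in both libraries at 51.9 and 30.8 CPM. The C1 intervals lay below those of all other cDC2 clusters. C9, the cluster of few UMIs that was left out of the 9, had more Hes1 than any of them, at 373 CPM in WT and 271 CPM in Batf3-/-. Its Dtx1 was at 144 and 90.3 CPM and its Esam at 43.7 and 38.2 CPM. The part of its depth and mitochondrial share in the Hes1 level was not tested. In the monocytes of C15 Hes1 was at 182 and 133 CPM.

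Nrarp was close to the limit of detection. C0 held 7 UMIs in WT and 3 UMIs in Batf3-/-, that is 0.321 and 0.137 CPM. Most of its transcripts were in the mitotic clusters C7, with 32 and 24 UMIs, and C10, with 16 and 17 UMIs, out of 69 and 66 UMIs over all cDC2. Grouped by the study's cell cycle phases, cDC2 in G2M had 5.30 CPM in WT and 4.05 CPM in Batf3-/-, and those in G1 0.40 and 0.34 CPM. Those in S had 0.96 and 0.31 CPM, and the mitotic cluster C5 held 3 and 0 UMIs. The sparse counts of Nrarp in cDC2 thus lay mostly in C7 and C10, not in all mitotic clusters. In the monocytes of C15 Nrarp was at 18.3 and 9.17 CPM.

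Esam, the surface molecule that marks the Notch-dependent cDC2 of the spleen, was highest in the mature Il4i1+ cluster C1, with 74.8 CPM in WT and 68.5 CPM in Batf3-/-. The interval of C1 did not overlap that of the next cluster in either library. C0 was at 43.5 and 42.8 CPM and C8 at 37.4 and 43.4 CPM. The mitotic clusters were at 31.3 and 32.1 CPM (C10), 22.9 and 29.7 CPM (C5) and 20.9 and 18.8 CPM (C7). C11 was at 20.7 and 28.5 CPM. C3 with 11.0 and 10.8 CPM and C2 with 7.84 and 8.15 CPM were the lowest, and C2 was near the 7.43 CPM of WT C4. Outside cDC2, the mixed cluster C16 had 111 and 120.1 CPM. Esam and Hes1 were at opposite ends in C1, where among cDC2 clusters Esam was at its highest and Hes1 at its lowest. Of the 4 genes listed here for ESAM-high cDC2 (Esam, Cd4, Clec4a4 and Dtx1), 1 passed 2-fold between C0 and C1. It was Clec4a4, higher in C0, where 6.9% of all genes were higher. Dtx1 was also higher in C0 than in C1. Of the 6 genes listed here for ESAM-low cDC2 (Cx3cr1, Ccr2, Csf1r, Csf3r, Lyz2 and Cd14), 3 had the counts between C0 and C1. Of these 3, 2 (Ccr2 and Lyz2) were past 2-fold higher in C1, where 7.29% of all genes were, and 0 were higher in C0. C1 thus had the most Esam and also more transcripts of these 2 ESAM-low genes than C0. With each cell thinned to 1000 UMIs, Cd4 was in 7.43% and 7.55% of C0 cells and 5.14% and 2.87% of C1 cells. The Cd4 intervals overlapped in WT alone.

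**Figure D1:**
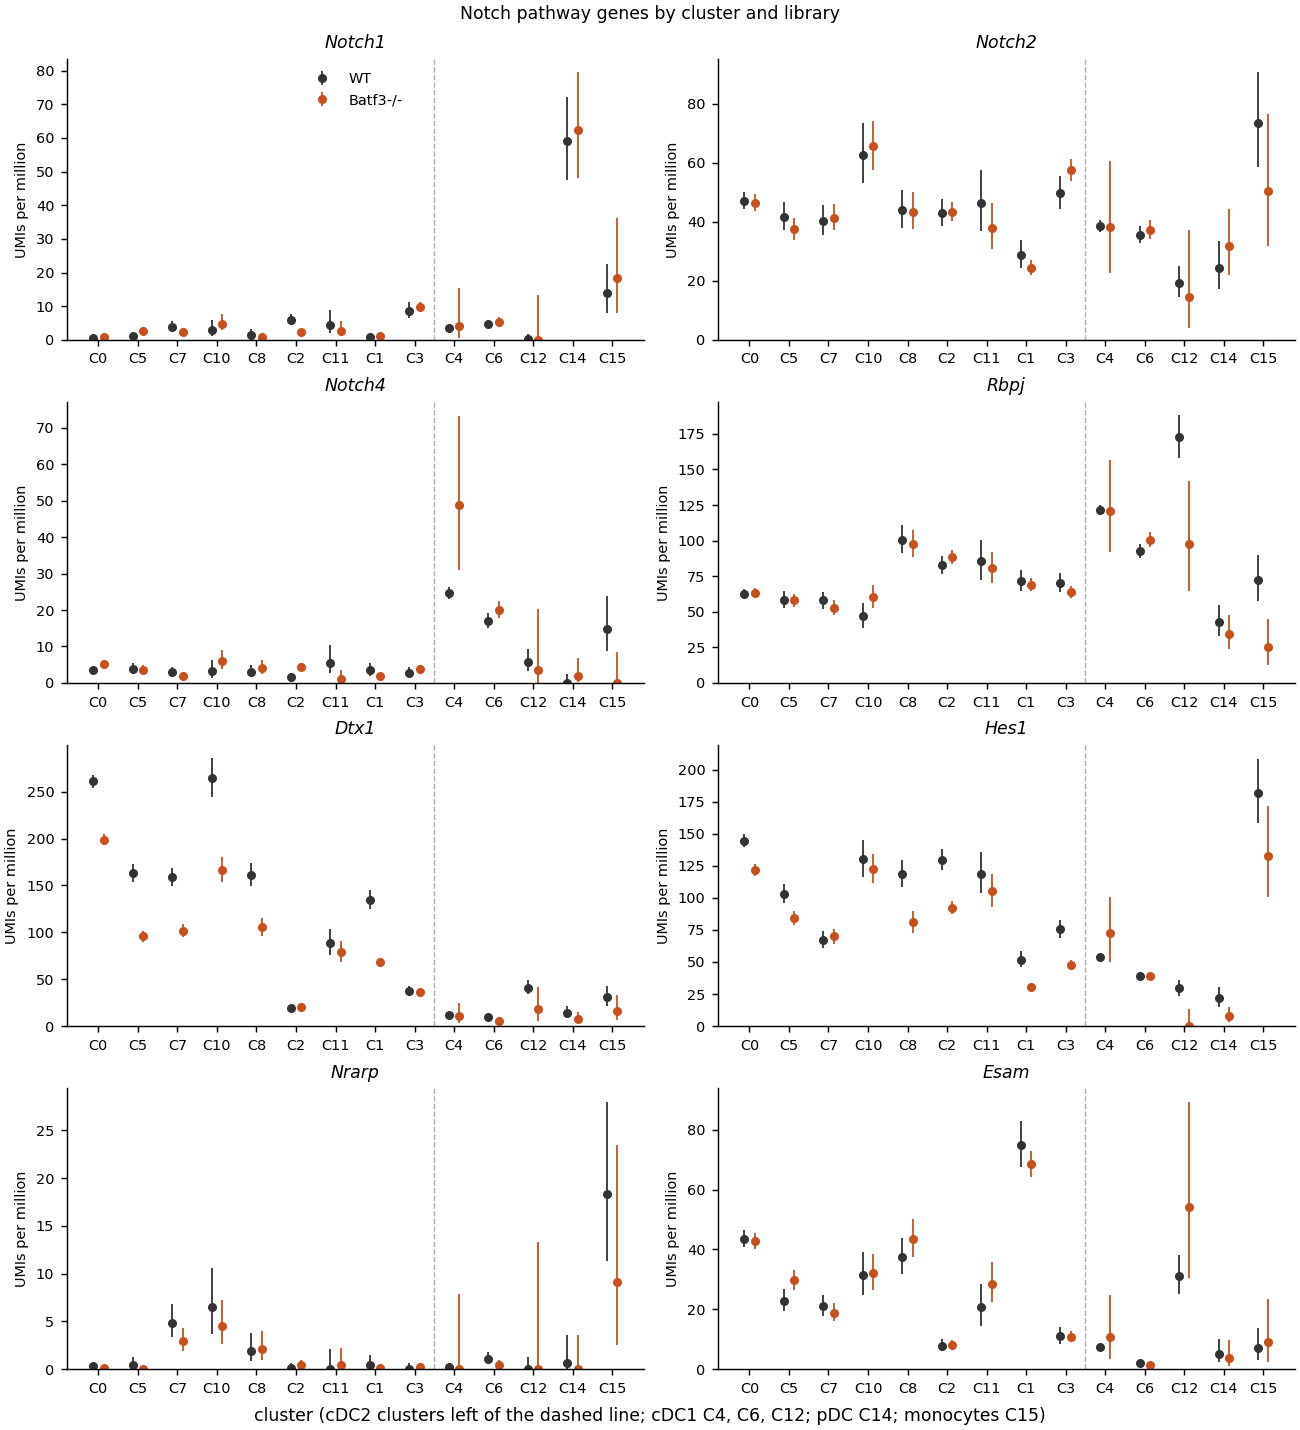
Level of each of the 8 genes (CPM, y axis, own scale in each panel) in the cDC2 clusters and in C4, C6, C12, C14 and C15 (x axis) for the WT and Batf3-/- libraries. Points are summed UMIs of a cluster and bars are 95% Poisson intervals, with groups of fewer than 30 cells left out. Dtx1 reaches 261 CPM in WT C0 and 19.7 CPM in WT C2, while Rbpj is highest among cDC2 in C8 and Esam in C1.

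Immature cDC2a were then set against the other immature or mature cDC2 clusters and against cDC1. A gene was read as different between clusters when it differed at least 2-fold in the same direction in both libraries, and 5 of the 8 genes had the counts for this (Notch2, Rbpj, Dtx1, Hes1 and Esam). Between C0 and C2, Dtx1 and Esam were higher in C0, 2 of the 5 genes, where 2.67% of all genes compared were higher. None of the 5 was lower, against 2.82% of all genes. Notch1, which was under the count limit, was at 0.504 against 5.79 CPM in WT and 0.731 against 2.35 CPM in Batf3-/-. Dtx1 was 13.3-fold higher in C0 in WT (log2 3.73) and 9.95-fold higher in Batf3-/- (log2 3.31), and Esam was 5.55-fold and 5.25-fold higher. Without the 5% of cells with the most UMIs the log2 ratio of Dtx1 was 4.50 in WT and 3.58 in Batf3-/-. The ratios of Notch2 (log2 0.13 and 0.10) and Rbpj (log2 -0.40 and -0.48) were under 2-fold, as was that of Hes1 (log2 0.15 and 0.40). The receptor, the nuclear factor and the repressor Hes1 thus differed between the immature clusters C0 and C2 by less than the limit, while Dtx1 and Esam passed it. Since the study gives Dtx1 among cDC2a genes, its difference between C0 and C2 is not independent of the cluster names. The mature clusters C8 and C11 were closer to each other, with Dtx1 at 161 against 88.8 CPM in WT and 105 against 79.0 CPM in Batf3-/-, and Esam at 37.4 against 20.7 CPM and 43.4 against 28.5 CPM.

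C2 is itself a mixture by the study's automated labels. Of its WT cells 552 were labelled dendritic cell and 384 monocyte. Dtx1 was at 29.4 CPM in the first and 4.38 CPM in the second, and in Batf3-/- at 26.1 and 5.48 CPM. Esam was at 11.4 and 2.19 CPM in WT and at 11.0 and 1.53 CPM in Batf3-/-. Hes1 had the other direction, with 110.3 CPM in WT cells labelled dendritic cell and 161.5 CPM in those labelled monocyte, and with 84.1 and 112.0 CPM in Batf3-/-. Even the C2 cells labelled dendritic cell were far below C0 in Dtx1.

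The mature cDC2b cluster C11 was above C2 in the same pair of genes, 2 of 5, against 2.39% of all genes higher and 0.305% lower. Dtx1 was 4.51-fold higher in WT and 3.96-fold higher in Batf3-/-, and Esam 2.63-fold and 3.50-fold higher. Among markers of other cell types, Cadm1 (1 of 3 cDC1 markers), Siglech (1 of 3 pDC markers) and Ms4a1 (1 of 1 B cell marker) were also past 2-fold higher in C11. None was past it lower, and the part of these in the ratios of Dtx1 and Esam was not tested. In cDC1, WT C12 was above WT C4 by 3.37-fold in Dtx1 and 4.17-fold in Esam, 2 of 6 genes, where 14.6% of all genes were higher. Notch2 and Notch4 were lower, also 2 of 6, where 22.7% of all genes were lower. The 122 UMIs of Dtx1 in WT C12 lay in 49 of its 394 cells. Of the 4 cDC2 markers, 2 (Sirpa and Irf4) were also past 2-fold higher in WT C12 and 0 lower. Of the 5 cDC1 markers, 4 were lower and 0 higher. The part of these in the ratios between C12 and C4 was not tested. Between the cDC2a clusters C8 and C0, 0 of 5 genes passed the limit in either direction, where 4.71% of all genes were higher and 1.28% lower in C8. Dtx1 was 1.62-fold lower in C8 in WT and 1.88-fold lower in Batf3-/-, and the ratio of Esam was -0.22 and 0.02 on the log2 scale. Rbpj was 1.61-fold and 1.54-fold higher in C8 than in C0. Of 10 genes induced by tissue digestion, 6 passed 2-fold higher in C8 (Fos, Fosb, Junb, Atf3, Dusp1 and Ier2) and 2 lower (Hspa1a and Hspa1b). The 4 monocyte markers summed to 211 CPM in WT C8 against 34.8 CPM in WT C0. The part of these in the ratios of Rbpj and Dtx1 was not tested, and neither was the difference between the 3 pairs of immature and mature clusters.

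Against the mature Il4i1+ cluster C1, 1 of 5 genes was higher in C0 and none lower, with a background of 6.9% higher and 7.29% lower. The gene was Hes1, 2.78-fold higher in WT and 3.95-fold higher in Batf3-/-. Dtx1 was 1.93-fold higher in WT, just under the limit of 2-fold, and 2.92-fold higher in Batf3-/-. Counting each cell alike, or leaving mitochondrial and ribosomal protein genes out of the totals, brought Dtx1 past the limit. Notch2 was 1.63-fold and 1.90-fold higher in C0. Esam had the other direction, 1.72-fold and 1.60-fold higher in C1.

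Against the Sox4+ cluster C3, Dtx1 and Esam were again higher in C0, 2 of 5 genes, where 3.45% of all genes were higher and 3.31% lower. Dtx1 was 6.95-fold higher in WT and 5.50-fold higher in Batf3-/-, and Esam 3.95-fold and 3.96-fold. Hes1 was 1.91-fold and 2.55-fold higher. Notch2 was a little higher in C3 in Batf3-/-, by 1.24-fold, and in WT the log2 ratio was -0.08 with an interval that included 0.

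Against the cDC1 of C4, compared in WT alone because Batf3-/- kept 31 cells there, 6 of the 8 genes had the counts. Dtx1 (21.4-fold), Hes1 (2.70-fold) and Esam (5.85-fold) were higher in C0, 3 of 6, with 11.8% of all genes higher. Notch4 was lower, 1 of 6, with 6.65% of all genes lower. Rbpj was 1.94-fold lower in C0, near the limit, and Notch2 1.22-fold higher.

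**Figure D2:**
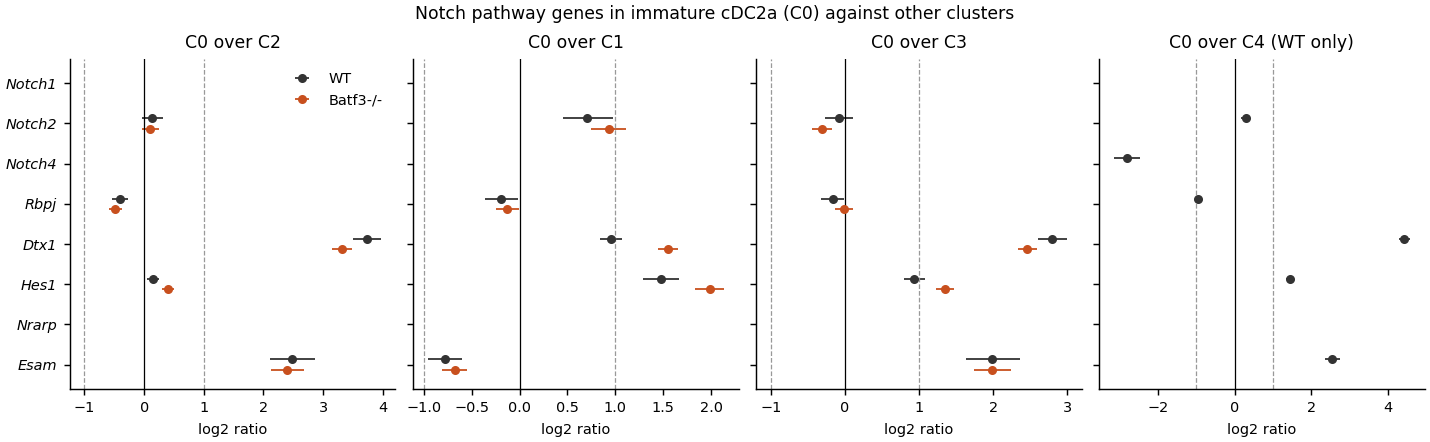
Ratio of the level in C0 to that in C2, C1, C3 and C4 (log2, x axis) for the 8 Notch genes (y axis) in the WT and Batf3-/- libraries, with C4 in WT only and genes without the counts left blank. Bars are 95% intervals of counting error and dashed lines mark 2-fold. Dtx1 and Esam lie above the upper line against C2, C3 and C4. Against C1, Hes1 lies above it in both libraries, Dtx1 in Batf3-/- alone (1.55), and Esam lies below 0.

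The share of cells with a transcript was compared after each cell was thinned to 1000 UMIs, a step that removed 28 shallower cells from WT and 42 from Batf3-/-. Dtx1 was found in 21.4% of WT C0 cells (exact binomial interval 20.03 to 22.9) and 18.1% of Batf3-/- C0 cells (16.7 to 19.5). Without thinning the shares were 68.7% and 60.5%, at median depths of 6648 and 7187 UMIs. C1 had 11.1% in WT and 5.69% in Batf3-/-, and C8 14.7% and 8.53%. C2 had 0.743% and 1.38%, with intervals that overlapped that of the 1.27% of WT C4 cells (0.847 to 1.83), so that no difference was detectable at this thinned depth. The median depths were 8369.5 and 9398.5 UMIs in C2 and 15398.5 UMIs in WT C4. By level, from all UMIs, WT C2 was above WT C4, with an interval of 16.8 to 22.9 CPM against 11.1 to 13.4 CPM. This rested on few cells in WT. Without the 48 WT C2 cells with the most UMIs, Dtx1 in WT C2 was at 11.4 CPM (interval 9.12 to 14.1), which overlapped WT C4 treated alike (10.3 CPM, interval 9.20 to 11.5). Batf3-/- C2 without its 76 cells with the most UMIs was at 16.9 CPM (interval 14.8 to 19.3). C3 lay above C4 with 3.55% and 4.09%. For Esam, C0 had 4.76% and 3.93% and C1 5.83% and 7.38%, while C2 with 0.743% and 0.921% and C3 with 0.426% and 1.17% had intervals that overlapped that of the 0.818% of WT C4. By level, from all UMIs, Esam in WT C3 was above WT C4, with an interval of 8.55 to 13.96 CPM against 6.55 to 8.41 CPM. Hes1 was found in 11.3% and 9.88% of C0 cells and 3.89% and 2.49% of C1 cells.

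**Figure D3:**
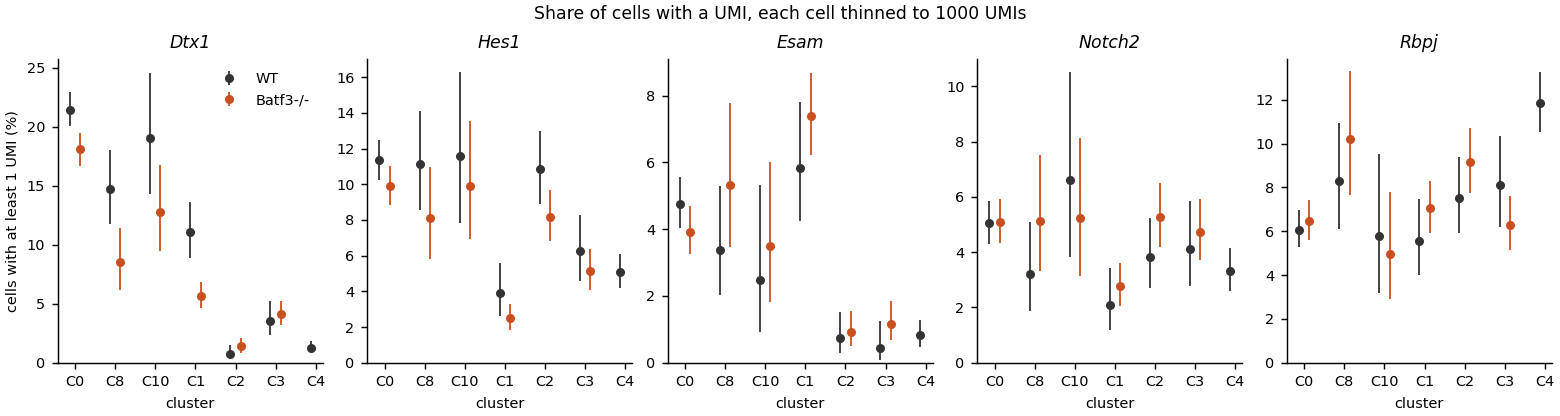
Percent of cells with at least 1 UMI of Dtx1, Hes1, Esam, Notch2 and Rbpj after thinning to 1000 UMIs (y axis) in C0, C8, C10, C1, C2, C3 and C4 (x axis) in the WT and Batf3-/- libraries, with exact 95% binomial bars. Dtx1 is in 21.4% of WT C0 cells, 0.743% of WT C2 cells and 1.27% of WT C4 cells.

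The cells of C0 spanned depths of 978 to 22387 UMIs (WT) and 741 to 25343 UMIs (Batf3-/-), and the spread of Dtx1 among them was not set against that of counting. No UMI of Dtx1 was found in 994 of the WT cells and 1169 of the Batf3-/- cells, while 520 and 361 cells, or 16.4% and 12.2%, had 4 or more, up to 16. For Hes1, 253 and 190 cells had 4 or more UMIs, up to 32 in WT. After each cell was thinned to 2000 UMIs, 1972 WT and 2067 Batf3-/- C0 cells showed no Dtx1, more than the 994 and 1169 without thinning. Many cells counted below as without Dtx1 thus held its transcripts, so the split cannot describe cells that lack Dtx1. In C0 both groups had near shares of Hes1. In WT, Hes1 was found in 18.3% of cells with Dtx1 and 17.7% of cells without, and in Batf3-/- in 17.5% and 16.8%. Esam was found in 8.87% and 7.30% in WT and in 10.9% and 7.06% in Batf3-/-, where the binomial intervals of the last pair did not overlap. Cd4, the co-receptor of ESAM-high cDC2, was found in 12.6% and 13.9% of WT cells. In C1, Hes1 was found in 13.2% of WT cells with Dtx1 and 5.80% of those without, with overlapping intervals, and in 9.55% and 4.48% in Batf3-/-, where the intervals did not overlap. Esam in C1 was found in 21.3% of Batf3-/- cells with Dtx1 and 12.5% of those without, whose intervals did not overlap, and in WT in 14.7% and 13.99%. Clec4a4 in C1 was found in 7.75% of WT cells with Dtx1 and 2.22% of those without, with intervals just apart. In Batf3-/- its shares were 3.37% and 2.72%, with overlapping intervals. The cDC2 marker Sirpa also had higher shares in C1 cells with Dtx1 than in those without. They were 32.6% and 24.4% in WT and 30.9% and 23.5% in Batf3-/-, with overlapping intervals. The pairs given here are some of those compared, and their number was not allowed for. In WT C10, Hes1 had the other direction, with 17.2% in cells with Dtx1 and 25.0% in cells without and overlapping intervals. Cells of 1 library are not replicates, and these shares describe the libraries.

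Between genotypes, the targets Dtx1 and Hes1 stood furthest apart in C0 and C1 among the 5 Notch genes with the counts, both lower in Batf3-/-. Notch4, under the count limit, was at 3.53 CPM in WT and 5.21 CPM in Batf3-/- in C0 (77 and 114 UMIs, log2 0.56, interval 0.13 to 1.00). Genes were read as different at 1.5-fold. In C0, none of the 5 genes with the counts reached it in either direction, where 0.956% of all genes were higher and 0.886% lower in Batf3-/-. Dtx1 was 1.32-fold lower in Batf3-/- (log2 -0.40, interval -0.45 to -0.34), which put it 211th from the lowest among 8575 genes. Hes1 was 1.18-fold lower (log2 -0.24, interval -0.32 to -0.17). The log2 ratios of Notch2, Esam and Rbpj in C0 were -0.02, -0.02 and 0.01, each with an interval that included 0. In C1, Dtx1 was 1.99-fold lower (log2 -0.99, interval -1.14 to -0.85) and Hes1 1.68-fold lower (log2 -0.75, interval -0.98 to -0.52), 2 of 5 genes, with 2.58% of all genes lower and 2.09% higher. Dtx1 was 34th and Hes1 99th from the lowest of 8619 genes in C1.

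Over all 9 cDC2 clusters, Dtx1 was at 165 CPM in WT and 97.0 CPM in Batf3-/-, 1.70-fold lower, and was 1 of 5 genes past 1.5-fold, where 1.04% of all genes were lower and 1.55% higher. Hes1 was at 113 and 81.4 CPM, 1.39-fold lower. The libraries differed in their clusters. C1 made up 5.90% of the WT and 15.2% of the Batf3-/- library, C2 7.71% and 12.5%, and C3 5.76% and 12.7%, while C0 made up 26.0% and 24.4%, C8 4.34% and 3.87%, and the cDC1 cluster C4 18.01% and 0.256%. With each cluster weighed alike the log2 ratio of Dtx1 was -0.57, and with the WT shares of the clusters in both libraries it was -0.50, so that no gene of the group then passed 1.5-fold.

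Cluster by cluster, Dtx1 was lower in Batf3-/- in 8 of 9 cDC2 clusters, with intervals below 0 in 6 of them. The log2 ratios were -0.77 in C5 and -0.66 in C10, and -0.64 and -0.61 in C7 and C8. In the clusters where Dtx1 was lower to begin with, they were -0.17 in C11, -0.06 in C3 and 0.02 in C2, with intervals that included 0. A lower Dtx1 in Batf3-/- was not particular to these cDC2 clusters. Its log2 ratio was -0.98 in the mitotic cDC1 cluster C6 (interval -1.41 to -0.55). It was -0.68 in C9 (interval -1.14 to -0.22) and -0.61 in C13 (interval -1.05 to -0.19). In C4, C12, C14, C15 and C16 the intervals included 0, and of these only C16 was above 0, at 0.09. Hes1 was also lower in 8 of 9 cDC2 clusters, with intervals below 0 in 6. Its log2 ratios were -0.67 in C3, -0.55 in C8, -0.49 in C2 and -0.30 in C5, against -0.18 in C11, -0.09 in C10 and 0.05 in C7. The clusters where Dtx1 and Hes1 were lower were therefore partly different, and whether the clusters differed in these ratios was not tested. Of the 7533 genes with the counts in all 9 clusters, 3.13% had intervals below 0 in at least 6. This share is not matched for level, and genes with fewer UMIs than Dtx1 and Hes1 have wider intervals. Among the genes under the count limit, Notch4 was at 1.57 CPM in WT and 4.31 CPM in Batf3-/- in C2, from 13 and 66 UMIs, but at 5.58 and 1.17 CPM in C11, from 10 and 3 UMIs. Notch1 in C2 had a log2 ratio of -1.30 (interval -1.97 to -0.65). Among those with the counts, Esam in C5 had a log2 ratio of 0.37 (interval 0.10 to 0.66). Rbpj in C10 also had a log2 ratio of 0.37 (interval 0.04 to 0.71), and Notch2 in C3 one of 0.21 (interval 0.02 to 0.40).

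**Figure D4:**
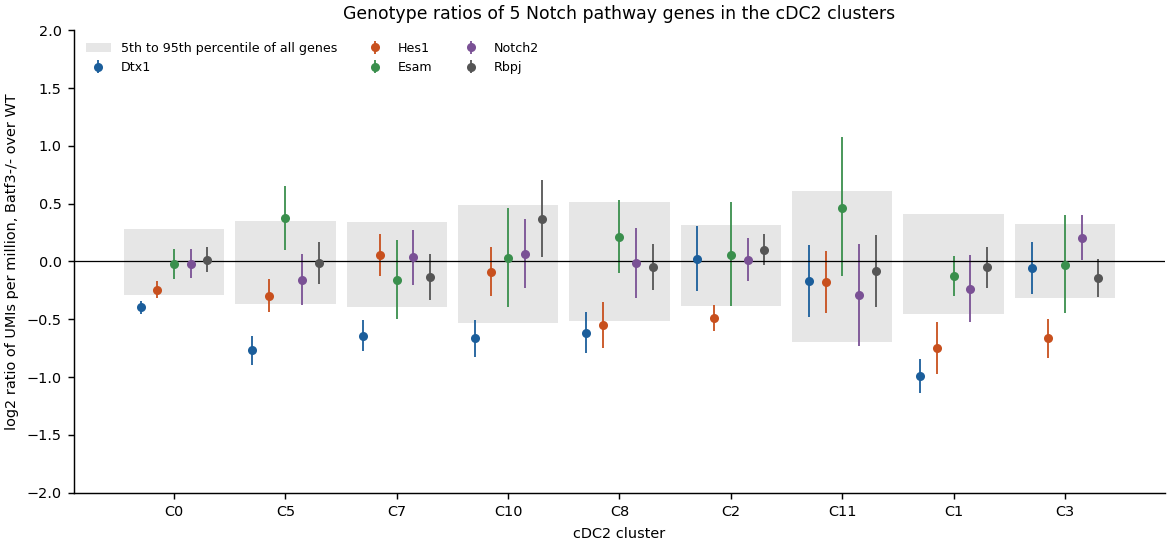
Ratio of Batf3-/- to WT (log2, y axis) for Dtx1, Hes1, Esam, Notch2 and Rbpj in the 9 cDC2 clusters (x axis), with bars for the 95% interval of counting error and a grey band from the 5th to the 95th percentile of all genes compared in that cluster. Dtx1 lies at -0.99 in C1 and at 0.02 in C2, and Rbpj reaches 0.37 in C10.

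Other genes were also compared between the genotypes in C0 and C1, and not all went the same way as Dtx1 and Hes1. In C0, 8 of 10 genes induced by tissue digestion (Fos, Jun and the like) had log2 ratios below 0. Their median was -0.11, against 0.01 over all genes compared, and the share of all genes below 0 was not counted. None passed 1.5-fold, where 0.956% of all genes were higher and 0.886% lower. In C1, 2 of 10 were below 0, with a median of 0.04, against -0.01 over all genes. Of the 10, 1, Atf3, passed 1.5-fold, being higher in Batf3-/- (log2 1.16), where 2.09% of all genes were higher. The cDC1 markers Xcr1, Clec9a, Tlr3, Cadm1 and Batf3 summed to 326 CPM in WT C1 and 22.6 CPM in Batf3-/- C1, of which Batf3 itself made up 297 and 11.6 CPM and Clec9a 15.1 and 4.08 CPM. In WT C4, the cDC1 cluster, Dtx1 was at 12.2 CPM against 135 CPM in WT C1, and Hes1 at 53.6 CPM against 51.9 CPM. Cd4 was 1.71-fold lower in Batf3-/- C1 and 1.08-fold lower in C0. The part of these in the ratios of Dtx1 and Hes1 was not tested. In summed counts, fewer cells with a transcript and less transcript per cell cannot be told apart.

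The wider pathway was described with lists of its components. For C0 against C1, 6.9% of all genes were higher and 7.29% lower, and for C0 against C2, 2.67% and 2.82%, and each count of a list is to be set against these shares. Of the receptors and ligands 8 of 10 were in the tables. Between C0 and C1, 2 of them had the counts and 1, the ligand gene Jag1, differed at 2-fold, being lower in C0, and it was at 5.91 CPM in WT and 9.04 CPM in Batf3-/- over all cDC2, 1.53-fold higher in Batf3-/-. With each cluster weighed alike it was 1.43-fold higher and with the WT shares of the clusters 1.48-fold, both under 1.5-fold. Of the genes for receptor cleavage, 10 were compared between C0 and C2 and none differed. Against C1, 1 of 9 was higher in C0, where 6.9% of all genes were, namely Aph1c, a subunit of the γ-secretase that releases the intracellular part of Notch, with 46.3 against 16.9 CPM in WT and 43.4 against 10.9 CPM in Batf3-/-.

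Of the glycosylation genes, which encode enzymes that add sugars to the receptors, 0 of 5 differed between C0 and C2. Against C1, 1 of 4 was higher and 1 of 4 lower in C0, with 6.9% of all genes higher and 7.29% lower. Mfng, a Fringe glycosyltransferase, was higher in C0, with 37.5 against 14.7 CPM in WT and 34.6 against 13.2 CPM in Batf3-/-. Poglut1, which adds glucose to Notch, was lower in C0, with 12.5 against 105 CPM in WT and 11.2 against 105 CPM in Batf3-/-.

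Among the endocytosis and ubiquitin ligase genes, 2 of 11 were higher in C0 than in C2, Dtx1 and Nedd4, a ligase that ubiquitinates membrane proteins. Nedd4 was at 164 against 68.3 CPM in WT and 158 against 60.3 CPM in Batf3-/-. Neurl3, of the Neuralized family, was higher in C0 than in C1, with 189 against 65.2 CPM in WT and 143 against 40.0 CPM in Batf3-/-, and also higher in C0 than in C3. Over all cDC2 it was at 165 CPM in WT and 109 CPM in Batf3-/-, 1.51-fold lower, which put it with Dtx1 as 2 of 11 genes of its list past 1.5-fold, where 1.04% of all genes were lower. Neurl3, like Dtx1, no longer passed 1.5-fold with each cluster weighed alike (1.32-fold lower) or with the WT shares of the clusters (also 1.32-fold). Of the transcription complex, 1 of 7 genes differed between C0 and C1. This was Maml3, a co-activator of the Mastermind family, higher in C0 with 29.2 against 8.25 CPM in WT and 33.2 against 10.1 CPM in Batf3-/-. Of the co-repressors, 1 of 8, Ctbp2, was lower in C0 than in C2, with 6.10 against 14.96 CPM in WT and 7.72 against 16.4 CPM in Batf3-/-. Of the 11 target genes 10 were in the tables, 3 or 4 had the counts in a comparison, and those that differed between C0 and C1 besides Hes1 were Myc, higher in C0 with 14.1 against 5.63 CPM in WT and 9.37 against 3.14 CPM in Batf3-/-, and Il2ra, which encodes the α chain of the IL-2 receptor, lower in C0 with no UMI against 15.3 CPM in WT and 0.137 against 22.0 CPM in Batf3-/-. Between C0 and C3, Dtx2, another Deltex ligase, was lower in C0 with 11.2 against 33.4 CPM in WT and 11.3 against 38.3 CPM in Batf3-/-.

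Across the 9 cDC2 clusters of both libraries, 18 points that share clusters and libraries, the log2 levels of Esam and Dtx1 had a Pearson r of 0.72 and those of Dtx1 and Hes1 one of 0.28. Hes1 and Notch2 had an r of 0.59, and Esam and Notch1 one of -0.75. Of the 5436 genes that averaged 20 CPM or more over these points, those most like Dtx1 were Rapgef1 (r 0.93), Herc1 (0.92) and Sipa1l1 (0.91). For Hes1 they were Evl (0.94), Abi3 (0.94) and Entpd1 (0.93), and for Esam they were Nrbf2 (0.96), Anpep (0.95) and Ryr3 (0.95). For Notch2 they were Arhgap18 (0.94), Def6 (0.93) and Atxn3 (0.92), and for Rbpj Map1lc3a (0.93), Ptafr (0.93) and Sowahc (0.88). Notch1 was most like Lrpap1 (0.93), Atp6ap2 (0.85) and Hpse (0.84). Notch4 had no close match, with Dhps at 0.65, Scnm1 at 0.64 and Ccndbp1 at 0.63. These lists are descriptions over few points, and none of their genes was kept when all clusters of at least 30 cells were used.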

How the data were processed

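The authors mapped the reads with Cell Ranger to GRCm38, evened the depth of the libraries and deposited, per the labels and methods, tables of raw UMI counts per gene and cell after their filters on cells, with Seurat 3.0.5 clusters (16 principal components, resolution 0.5), SingleR labels, cell cycle phases and a mitochondrial fraction per cell. bcl2fastq 2.2.0 is named in the submitters' processing notes. The mitochondrial fraction deposited by the authors was recomputed and matched in all 24343 cells. Their normalized and antibody tables were not used here. Counts were summed per cluster and library and divided by the summed UMIs (CPM). Intervals were exact Poisson for levels, exact binomial splits for ratios and Clopper-Pearson for shares, at 95%, and cover counting error only. Ratios were compared for genes averaging 5 CPM or more over the 2 groups and holding 20 or more UMIs in them, with limits of 2-fold between clusters and 1.5-fold between genotypes. For shares, cells were thinned to 1000 UMIs. No doublet caller was run, and the 5% of cells with the most UMIs were left out as an alternative. Python 3.11.15, numpy 2.4.6, scipy 1.17.1 and pandas 2.3.3 were used, and the calculations were tested on simulated data. The 8 genes, the lists, the limits and the tests were chosen with earlier results of these data known. Named were the 8 genes throughout, genes of the Notch lists that differed 2-fold between C0 and another cluster in both libraries at 20 CPM or more over cDC2, and the 3 genes most like each member with at least 200 UMIs. Jag1, Ctbp2, Dtx2, Myc and Il2ra were named outside that rule where few genes were counted, after their values were seen. The list of digestion-induced genes was chosen after seeing the data.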

Additional observations from a re-analysis of the deposited data

How the results depend on the processing

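The count of Notch genes past 2-fold between C0 and C1 was 2 in place of 1 with the mean over cells and with totals without mitochondrial and ribosomal protein genes, Dtx1 being added. The count past 1.5-fold between genotypes over the cDC2 clusters was 0 in place of 1 with each cluster weighed the same, and 0 with the WT shares of the clusters used in both libraries. That last setting, and both weightings of Neurl3 and Jag1 and the levels of Dtx1 without cells of many UMIs, were chosen after seeing the data. Among 239 alternative values of 51 log2 ratios, 222 moved by less than the counting interval, 17 moved by more and 0 changed direction. The log2 ratio of Dtx1 between C0 and C2 moved most without the 5% of cells with the most UMIs, to 4.50 in WT and 3.58 in Batf3-/-. Dtx1 shares in C0 were 37.7% and 29.6% at 2000 UMIs. No paired analysis was possible because each group holds 1 library, and no library could be left out. Depth limits Notch1, Notch4 and Nrarp, whose ratios rest on few UMIs in most cDC2 clusters.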
